A study of Mus musculus with 6 samples.

Results

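Small nucleolar RNAs (snoRNAs) and the related RNAs of Cajal bodies were read in total RNA from mouse bone marrow cells that expressed either of a pair of forms of MLLT3. The members were taken by symbol: genes named Snord (C/D box), Snora (H/ACA box) or Scarna (Cajal body) with a number, whose mean over the 6 libraries was at least 3. Of 150 genes with such a symbol, 26 met this rule: 11 Snord, 11 Snora and 4 Scarna, among 18766 genes tested and 55487 in the table. The values are regularized log (rlog) values, which are on the log2 scale, are scaled for library size, and are pulled toward the mean of each gene, most of all where reads are few. All 6 libraries came from bone marrow cells positive for Kit, transduced with a lentivirus, sorted, and kept in methylcellulose over 8 days. The medium held 10 ng/mL Flt3L, other cytokines at 20 ng/mL each, and 200 nM 4-hydroxytamoxifen, which per the labels deletes the endogenous Mllt3 gene in both groups. WT cells (n = 3) carried wild type MLLT3 from the virus, and DM cells (n = 3) carried MLLT3 with the substitutions K63E and K67E. The virus overexpressed both forms, and the strain and age of the mice are not given in the sources used here. MLLT3 is a subunit of complexes that release RNA polymerase II into elongation, and its YEATS domain binds acylated histone tails. The title of the series adds the noncoding RNA 7SK as a ligand of that domain. Whether binding of 7SK bears on the levels of other short nuclear RNAs was not tested.

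In mammals most snoRNAs are cut from introns of other genes, their hosts, after splicing, and a few have promoters of their own. C/D box snoRNAs carry fibrillarin to sites of ribose methylation in ribosomal RNA, and H/ACA box snoRNAs carry dyskerin to uridines that become pseudouridine. Some snoRNAs instead help to cut and fold the ribosomal precursor, and Cajal body RNAs guide the same modifications on spliceosomal RNAs. Blood formation is sensitive to this machinery, since mutations of dyskerin cause bone marrow failure.

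The sequences of the members at the head of the results are shown with the motifs searched for in each class. They are shown 5′ to 3′ with T for U, as annotated by GENCODE M21 on GRCm38, the assembly called mm10 in the submitters' processing notes. Capitals mark the first TGATGA in the first part of a C/D box RNA up to its midpoint (C box) and the last CTGA within its last 25 bases (D box). In H/ACA box RNAs they mark the first ANANNA between 35% and 65% of the length (H box) and the last ACA within the last 8 bases. Only the strand of the RNA was searched. Snord17 and Snord118 were the highest C/D box members, and Snord89 was 1 of the 2 members whose WT and DM values did not overlap.
Snord17: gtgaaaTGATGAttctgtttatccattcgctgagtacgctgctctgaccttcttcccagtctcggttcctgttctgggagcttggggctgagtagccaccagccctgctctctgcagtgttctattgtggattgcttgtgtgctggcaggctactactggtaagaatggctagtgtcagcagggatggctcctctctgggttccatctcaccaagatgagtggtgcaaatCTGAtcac
Snord118: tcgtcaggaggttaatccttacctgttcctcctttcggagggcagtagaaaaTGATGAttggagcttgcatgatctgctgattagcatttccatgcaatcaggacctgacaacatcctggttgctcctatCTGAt
Snord89: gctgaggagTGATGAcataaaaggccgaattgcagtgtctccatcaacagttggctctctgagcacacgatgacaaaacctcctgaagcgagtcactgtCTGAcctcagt

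Snora73b and Snora23 were the highest H/ACA box members. Snora73a is shown beside Snora73b because the pair are near-identical neighbours that the table lists at very different levels.
Snora73b: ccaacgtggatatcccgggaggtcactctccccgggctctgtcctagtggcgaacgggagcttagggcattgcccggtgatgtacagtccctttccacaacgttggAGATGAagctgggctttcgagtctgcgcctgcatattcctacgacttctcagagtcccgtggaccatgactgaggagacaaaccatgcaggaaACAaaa
Snora73a: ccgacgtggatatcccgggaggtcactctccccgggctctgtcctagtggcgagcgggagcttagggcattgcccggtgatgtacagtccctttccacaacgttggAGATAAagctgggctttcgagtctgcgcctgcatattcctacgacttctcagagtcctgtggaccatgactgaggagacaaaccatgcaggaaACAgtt
Snora23: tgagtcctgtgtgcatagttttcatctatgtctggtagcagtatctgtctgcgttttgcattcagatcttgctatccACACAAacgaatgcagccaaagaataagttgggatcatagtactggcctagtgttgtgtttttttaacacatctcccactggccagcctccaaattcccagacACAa

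Both boxes were found in 10 of the 11 tested C/D box members (90.9%), against 73.7% of all 99 Snord genes in the table. Snord53 was the exception, with a C box but no CTGA near its end. In Snord118 the TGATGA began at base 53, far inside the RNA, whereas in Snord17 it began at base 7. Of the 11 tested H/ACA box members, 10 (90.9%) had both motifs, against 88.1% of all 42 Snora genes, and in 8 of the 11 the ACA stood 3 bases from the end. Snora78 had no ANANNA in the window searched. ANANNA is a loose motif and alone does not mark the class. The same search found it in C/D box members, at base 50 of Snord118 and base 65 of Snord89, though not in Snord17. GC content ran from 45.9% in Snord118 to 63.3% among the C/D box members, and from 40.6% in Snora20 to 64.1% in Snora78 among the H/ACA box members.

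Most annotated snoRNAs were hardly read in these libraries. Of the 124 genes below the mean of 3, 78 were listed at exactly 0 in all 6 libraries, 55 of them Snord, 22 Snora and 1 Scarna. Among those listed at 0 were Snord14a, Snord14d, Snord14e and Snord22, which belong to the C/D box class, Snora74a of the H/ACA box class, and Scarna10. Snord33 was listed at 0 too, while Snord34 had a mean rlog value of -1.97 Snord35a of -0.58 and Snord32a of 0.88; these are guides held by a single ribosomal protein gene. Just below the limit stood Snord71 (mean rlog value 2.99), Snord72 (2.95) and Snord92 (2.75), and just above it Snord83b (3.12), Snord53 (3.29) and Snora62 (3.31). The rlog scale gives genes with next to no reads values around or under 0, so levels below the limit cannot be ranked.

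Longer RNAs were read more often. Of the 10 genes of 150 bases or more, 6 (60.0%) reached the limit, against 14 of 51 (27.5%) with at least 100 but under 150 bases and 6 of 89 (6.7%) under 100 bases. Across the 26 members the mean rlog value and the log2 length had a Pearson r of 0.71, given as a description over genes that share the same libraries. Per kilobase, that is with the log2 length in kilobases subtracted, the mean level was 12.65 for Snora73b, 11.6 for Snord17, 10.79 for Scarna2, 10.66 for Snord118 and 10.5 for Snord104, down to 6.06 for Snora62. Snord104, with 70 bases the shortest C/D box member, thus stood below only those 4 on that scale. The extraction kit and the total RNA library kit were the same for all 6 libraries, and the size range of fragments they kept is not given in the sources used here.

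**Figure D1:**
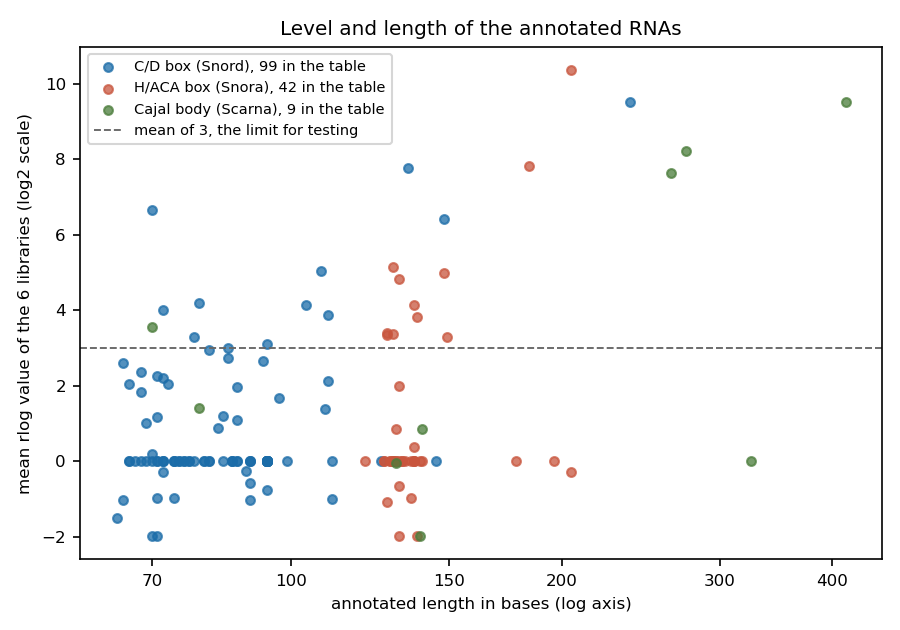
Each point is 1 of the 150 Snord, Snora and Scarna genes, placed by its annotated length in bases (log axis) and its mean rlog value over the 6 libraries. The 26 members lie above the dashed line at 3, and 6 of the 10 genes of 150 bases or more are among them.

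No member passed the test of DM against WT. With limma, 0 of the 26 were called at an adjusted p of 0.05 and 0 at an unadjusted p of 0.05, while 13.9% of all genes tested were called at the first threshold and 28.9% at the second. The smallest adjusted p was 0.355, for Scarna2. Differences of means, DM minus WT, ran from -0.11 to 0.09 on the log2 scale, with SEs from 0.0363 to 0.107. The median size of the difference was 0.042, against 0.101 over all genes tested, which include more genes of high level. At like levels the gap differed. The median sizes for members and all genes were 0.036 and 0.065 at means from 3 to 5, and 0.049 and 0.079 from 5 to 7. They were 0.024 and 0.119 from 7 to 9, and 0.09 and 0.137 from 9 to 11. The 95% intervals of all 26 differences lay between -0.28 and 0.32, which on the rlog scale is at most a 1.24-fold change either way. Those intervals hold for 1 RNA at a time and for values that the transform has already pulled together.

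That last limit weighs most on the lower members. Of the 26, 15 had a mean from 3 to 5, and of all genes in that range only 1.62% were called, with a median size of 0.23 among the called. From 5 to 7 (4 members) 8.02% of all genes were called, from 7 to 9 (4 members) 16.5%, and from 9 to 11 (3 members) 937 of 4461. Among genes typed as snoRNA, scaRNA, snRNA or miscellaneous RNA by the annotation, 3 of 163 (1.84%) were called. That set holds all members except Snord43, so it is not separate from them. Hence the absence of calls among so few members cannot set them apart from the other genes of their ranges. Within groups the members had lower SDs than other genes of their range: the median SD was 0.034 for members and 0.064 for all genes from 3 to 5, 0.074 and 0.095 from 7 to 9, 0.079 and 0.089 from 5 to 7, and 0.086 and 0.09 from 9 to 11. Nothing in the labels says that the 3 libraries of a group came from separate animals or cultures, so the tests measure the spread between these libraries.

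**Figure D2:**
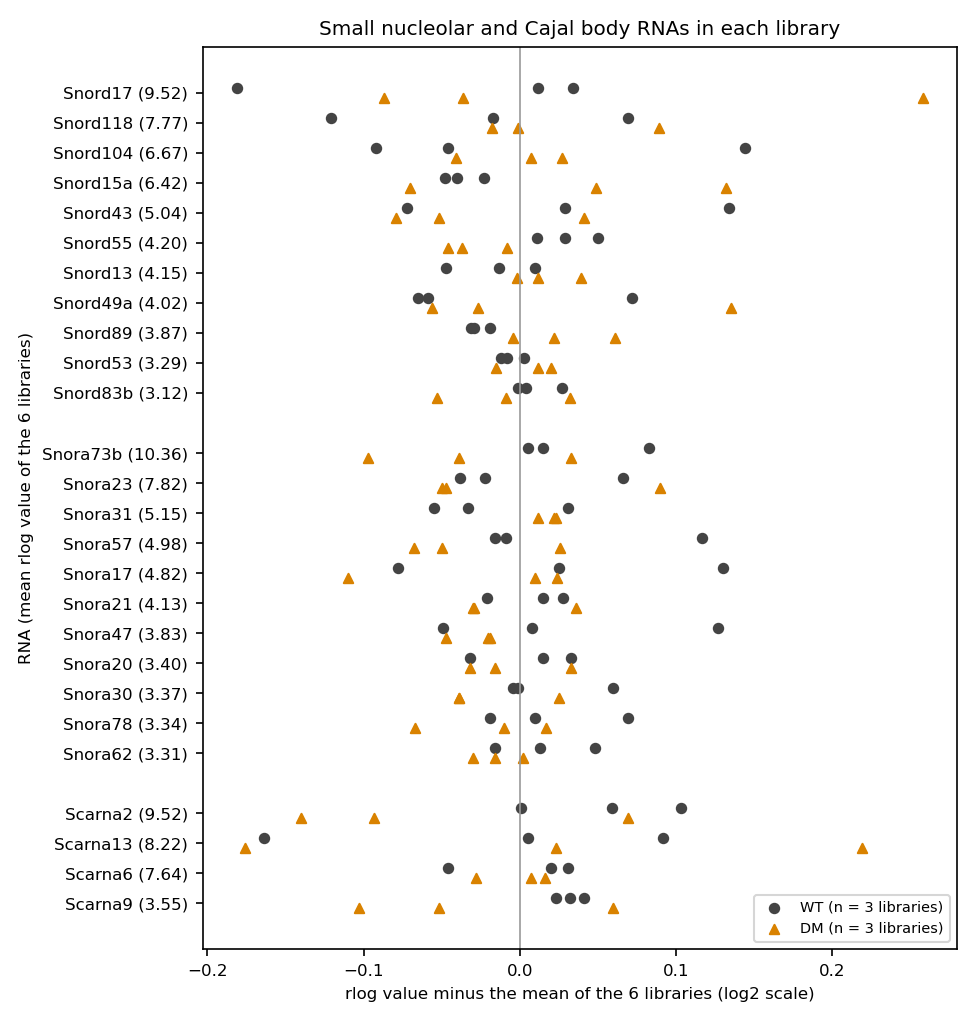
Rows are the 26 RNAs by class and level, and each point is 1 library's rlog value minus the mean of the 6 libraries (circles WT, triangles DM, n = 3 each). WT and DM points overlap in every row but Snord55 and Snord89.

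Snora73b, also known as U17, is an H/ACA box RNA that acts in processing of the ribosomal precursor and was the most abundant member (ENSMUSG00000065353.1; chromosome 4, 132352322 to 132352526, minus strand). WT replicates 1, 2 and 3 had rlog values of 10.37, 10.36 and 10.44, and DM replicates 1, 2 and 3 had 10.26, 10.39 and 10.32, the order kept from here on. The groups overlapped, with DM replicate 2 above 2 of the WT libraries. From a WT mean of 10.39 ± 0.0423 (SD, n = 3) to a DM mean of 10.33 ± 0.0653, the difference was -0.07 (SE 0.0661, 95% interval -0.22 to 0.08, limma adjusted p 0.514). Snora73a, 205 bases long like Snora73b and 98.02% identical to it over 202 bases, had a mean of -0.27, so reads of the pair may have been assigned to 1 gene and the value of Snora73b is uncertain as to its source.

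Snord118, or U8 (ENSMUSG00000064899.1; chromosome 11, 69073427 to 69073561, plus strand), is the C/D box RNA needed to mature the large-subunit ribosomal RNAs. WT libraries read 7.84, 7.75 and 7.65, and DM libraries 7.77, 7.86 and 7.75. Of the DM libraries, replicate 2 lay just above the WT range and the others within it. The difference was 0.05 (SE 0.075, 95% interval -0.12 to 0.21, limma adjusted p 0.71). Snord13 (chromosome 8), which guides acetylation of the small-subunit ribosomal RNA, differed by 0.03 (95% interval -0.07 to 0.13) at a mean of 4.15. None of the 3 RNAs of ribosomal precursor processing or acetylation thus passed the test.

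Among the other C/D box members, Snord17 (ENSMUSG00000077714.1; chromosome 2, 144265979 to 144266216, minus strand) was the highest and had the largest difference. WT libraries read 9.34, 9.56 and 9.54, and DM libraries 9.44, 9.78 and 9.49. One library of each group stood apart, WT replicate 1 low and DM replicate 2 high, and the other values were mixed. The difference was 0.09 (SE 0.101, 95% interval -0.14 to 0.32, limma adjusted p 0.582), and without DM replicate 2 it was -0.016.

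Snord55 and Snord89 were the 2 members (7.7% of 26) whose groups did not overlap, while 35.8% of all genes tested had groups that did not overlap. Snord55 read 4.23, 4.25 and 4.21 in WT and 4.16, 4.16 and 4.19 in DM, so that every DM library lay slightly below every WT library. Its difference was -0.06 (SE 0.0454, limma adjusted p 0.4). Snord89 (chromosome 1, 39548745 to 39548854, minus strand) read 3.84, 3.84 and 3.85 in WT and 3.89, 3.87 and 3.93 in DM, the opposite order, with a difference of 0.05 (SE 0.0428, limma adjusted p 0.433). After quantile normalization the difference of Snord55 was 0.005. Of the remaining C/D box members, Snord15a (0.07), Snord49a (0.03) and Snord53 (0.01) had higher means in DM, Snord43 (-0.06, typed as a miRNA by the annotation) and Snord83b (-0.02) lower ones, and Snord104 differed by -0.0042.

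Among the other H/ACA box members, Snora23 (ENSMUSG00000064451.1; chromosome 7, 110046364 to 110046547, plus strand) was the highest and read 7.89, 7.79 and 7.8 in WT and 7.78, 7.91 and 7.77 in DM. Each group held 1 high and 2 low libraries. The difference was -0.0045 (95% interval -0.17 to 0.16, limma adjusted p 0.972). Snora31, the third highest of the class, had values between 5.1 and 5.18 in all 6 libraries and a difference of 0.04. The other 8, Snora57, Snora17, Snora21, Snora47, Snora20, Snora30, Snora78 and Snora62, had differences from -0.06 to -0.01 at means from 3.31 to 4.98. The annotation holds near-identical copies of 6 members, whose values are therefore uncertain: Snora73b, Snora17 (94.4% identity), Snora21 (97.81%), Snora30 (98.46%), Snora57 (95.95%) and Snord118 (96.24%).

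The Cajal body RNAs included the member with the largest difference. Scarna2 (ENSMUSG00000088185.1; chromosome 3, 108554338 to 108554751, minus strand), which guides methylation of the U2 spliceosomal RNA and at 414 bases is the longest member, read 9.52, 9.58 and 9.62 in WT and 9.38, 9.43 and 9.59 in DM. DM replicates 1 and 2 lay below all WT libraries, and DM replicate 3 lay among them. Means were 9.57 ± 0.0511 for WT and 9.46 ± 0.11 for DM (SD, n = 3 each), and their difference was -0.11 (SE 0.0748, 95% interval -0.28 to 0.06, limma adjusted p 0.355). Scarna13, which guides pseudouridine formation, was the least even member: WT libraries read 8.31, 8.22 and 8.05, and DM libraries 8.24, 8.04 and 8.43. The DM values span the WT values on both sides. Its difference was 0.04, but -0.027 with WT replicate 3 left out and -0.055 with DM replicate 3 left out. Scarna6 stayed between 7.59 and 7.67 in all 6 libraries, and Scarna9, whose annotated length is 70 bases, differed by -0.06.

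**Figure D3:**
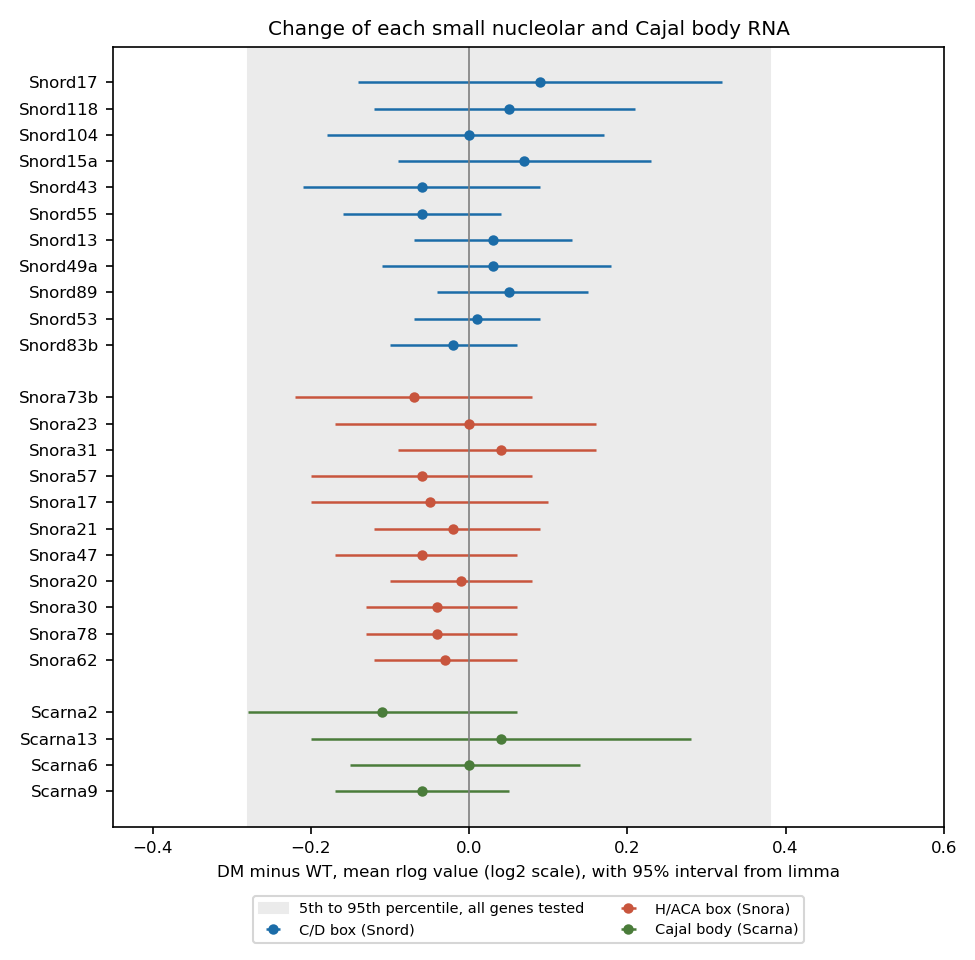
Points are differences of mean rlog values, DM minus WT (n = 3 libraries each), and bars are 95% intervals from limma; the grey band spans the 5th to 95th percentile of the differences of all genes tested (-0.28 to 0.38). Every bar crosses 0.

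The direction of the H/ACA box members depended on how the libraries were scaled, while the C/D box median was not below 0 under any scaling. The median difference of the 11 C/D box members was 0.033, with 7 higher and 4 lower in DM, and that of the 11 H/ACA box members was -0.036, with 1 higher and 10 lower, beside a median of 0.005 over all genes tested. After quantile normalization 11 of 11 C/D box members and 9 of 11 H/ACA box members were higher, with medians of 0.033 and 0.024, so the contrast between the classes was not kept. With each library centred on the median of the tested genes the C/D box median was 0 and the H/ACA box median -0.069. Centred on the members themselves, the medians were 0.083 and 0.014. Centring shifts all genes of a library alike, so it moves both medians together and does not bear on the contrast. The 4 Cajal body members had a median of -0.033, with 1 higher and 3 lower, and -0.013 after quantile normalization. Across libraries, the median deviation of the H/ACA box members from their own means was 0.028, 0.01 and -0.019 in WT and -0.03, -0.029 and 0.01 in DM, and that of the C/D box members was -0.001, 0.003 and -0.023 in WT and -0.041, 0.027 and 0.007 in DM. Both sets of values overlapped between the groups. Since members share libraries and hosts, these medians are given as descriptions without a test.

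By the annotation, 20 of the 26 members lay on the same strand inside a longer tested gene, and 6 lay in none: Scarna2, Snord118, Snord104, Snora57, Snora17 and Snord13. Of the 20, 5 had a noncoding host (Snora73b, which lies in the coding gene Rcc1 as well, Scarna13, Snord49a, Snord89 and Snora78), 6 a ribosomal protein gene and 9 another coding gene. The medians of the members' differences were 0.034, -0.025 and -0.005 in these 3 kinds of host and -0.027 without a host. Only Snora73b and Scarna13 overlapped an annotated exon of another gene. Snora57, Snora23, Snora73b and Snora78 had a gene on the opposite strand, and whether counting used strand is not given in the sources used here. In total RNA, reads of unspliced host RNA can also fall on a member inside a host. These values cannot tell such reads from those of the cut RNA, which limits the comparison of members with hosts.

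Differences spread wider among hosts than among the RNAs they hold. The 21 hosts differed by -0.36 to 0.24 (DM minus WT, rlog scale), and 1 of them was called with limma, where 13.9% of all genes tested were. That host was Rcc1, which encodes the exchange factor of the Ran GTPase and whose annotated body holds Snora73b: its mean was 9.54 in WT and 9.19 in DM, a difference of -0.36 (SE 0.092, limma adjusted p 0.0299). The call of Rcc1 was lost in 5 of 13 alternatives: with no filter on the mean (adjusted p 0.0605) and on leaving out WT replicate 1 (-0.275, 0.117), WT replicate 2 (-0.354, 0.0514), DM replicate 2 (-0.346, 0.0974) or DM replicate 3 (-0.325, 0.109). Snhg3, the noncoding gene in the same place, went from 7.13 to 6.9, a difference of -0.23 (adjusted p 0.116), whereas Snora73b differed by -0.07.

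Beyond that locus, Snx5, which encodes a sorting nexin and holds Snord17, differed by 0.24 (limma adjusted p 0.135) and Snord17 by 0.09. The noncoding gene 2410006H16Rik, which holds Snord49a and is named after its values were seen, differed by -0.26 (adjusted p 0.0884) and Snord49a by 0.03. Rpsa, a ribosomal protein gene with Snora62 in it, differed by -0.19 (adjusted p 0.213) and Snora62 by -0.03. Rpl3, the ribosomal protein gene that holds both Snord43 and Snord83b, differed by -0.14, and its RNAs by -0.06 and -0.02. Among these hosts, Snx5 was called with WT replicate 2 left out (0.315, adjusted p 0.0463), 2410006H16Rik with WT replicate 3 left out (-0.339, 0.0283), after quantile normalization (-0.333, 0.0278) and centred on the tested genes (-0.291, 0.0469), and Rpsa (-0.38, 0.00855) and Rpl3 (-0.311, 0.0132) after quantile normalization. Over the 22 pairs of member and host, 12 had the same sign once differences were rounded to 2 decimals. That count leaves out Snora23 (-0.0045) and its host Ipo7 (-0.02), which were both lower in DM. The Pearson r over the pairs was 0.46, a description over genes of the same libraries. It ran from 0.25 without WT replicate 3 to 0.64 without WT replicate 2. Sizes cannot be compared strictly between a host and its RNA, because the transform pulls in the lower of them more.

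**Figure D4:**
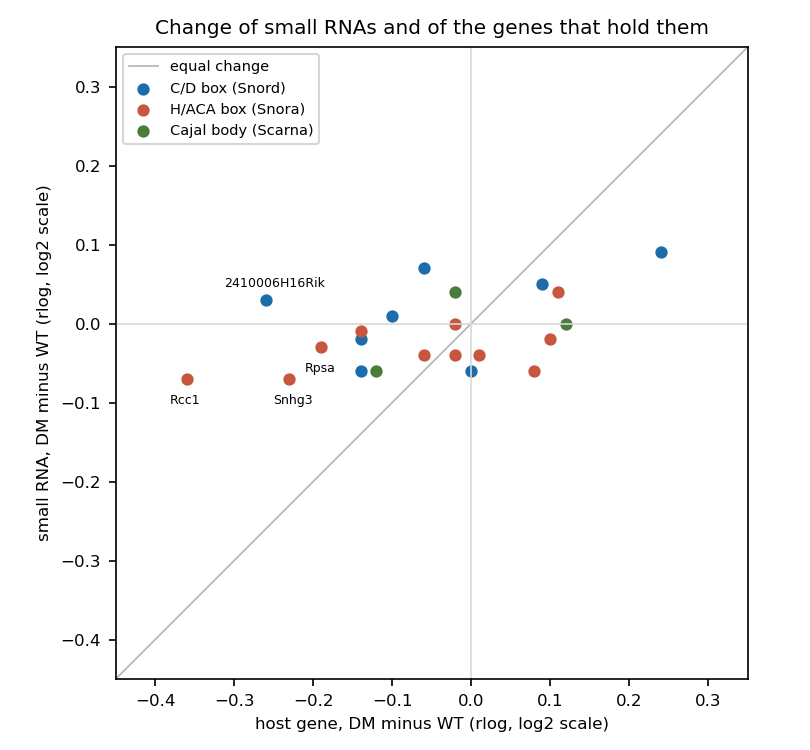
Each point is a small RNA and the gene that holds it on the same strand (22 pairs), with the difference DM minus WT (rlog, log2 scale) of the host on the horizontal axis and of the small RNA on the vertical axis; both axes have the same scale. Host names are given where the differences lie more than 0.15 apart, and the points lie flatter than the line of equal change.

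The rule by symbol leaves out snoRNA and scaRNA genes under other names, most of them model names that start with Gm. The annotation types 55 further tested genes as snoRNA or scaRNA. Of these, 51 overlap by at least 80% both ways with a single RefSeq gene of a snoRNA, guide RNA or antisense RNA. The median difference of the 55 was -0.015, and 1 of the 55 was called with limma beside 13.9% of all genes. This was Gm24727 (ENSMUSG00000088856.1; chromosome 8, 33691801 to 33691944, plus strand), named after its values were seen. It read 9.67, 9.83 and 9.69 in WT and 9.24, 9.22 and 9.42 in DM, and the groups did not overlap. Its difference was -0.44 (SE 0.0797, limma adjusted p 0.00833), and it was called in all 13 alternatives, with adjusted p values from 0.00244 to 0.0387. By the motif search it had an ANANNA at base 64 and an ACA 3 bases from its end, and neither TGATGA nor CTGA in the windows of a C/D box RNA; its sequence is shown since it was the only called RNA of this kind.
Gm24727: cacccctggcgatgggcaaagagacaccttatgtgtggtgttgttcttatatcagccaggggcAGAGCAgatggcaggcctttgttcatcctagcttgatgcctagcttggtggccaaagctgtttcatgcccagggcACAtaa

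Gm24727 lies inside Gsr, which encodes glutathione reductase, and Gsr differed by -0.28 (limma adjusted p 0.0409). That call was lost in 8 of 13 alternatives, including each of the 6 that left out a library (adjusted p from 0.0504 to 0.15). Reads of unspliced Gsr RNA over Gm24727 could not be told apart from its own. Of the other 54, Gm22806 (-0.18), Gm23722 (0.23) and Gm22009 (0.28) had an unadjusted p under 0.05 and limma adjusted p values of 0.0821, 0.0963 and 0.149. Gm22806 was called with WT replicate 3 left out (-0.22, adjusted p 0.0347) and centred on the tested genes (-0.211, 0.043), and Gm22009 centred on the members (0.33, 0.0495). These 3 were also named after their values were seen.

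The genes for proteins that bind, build and trim snoRNAs gave few calls at the RNA level, counted here from lists chosen with earlier results of these data known. Of the 4 genes for C/D box core proteins, 0 were called and 1 had an unadjusted p under 0.05. Nop56 differed by -0.24 (limma adjusted p 0.133), and Fbl, which encodes the methyltransferase fibrillarin, by 0.01. Of the 4 genes for H/ACA box core proteins, 0 were called and 1 had an unadjusted p under 0.05. Dkc1, which encodes the pseudouridine synthase dyskerin, differed by -0.30 (limma adjusted p 0.0892). Both Nop56 and Dkc1 were called with WT replicate 3 left out (Nop56 -0.341, limma adjusted p 0.026, and Dkc1 -0.404, 0.0206). They were also called after quantile normalization (-0.349, 0.0185, and -0.4, 0.0226), under which Fbl was -0.071. Of 11 assembly factor genes, 1 was called and 2 had an unadjusted p under 0.05. Ruvbl1 was the one not called (-0.19, limma adjusted p 0.161). Ruvbl2, which encodes an ATPase of the complex that loads core proteins, fell from 11.08 ± 0.194 (SD, n = 3) to 10.61 ± 0.0649, a difference of -0.47 (SE 0.0962, limma adjusted p 0.0123). Its call was lost on leaving out WT replicate 1 (-0.397, adjusted p 0.0516) or DM replicate 3 (-0.434, 0.0526). Of 13 tested genes listed for Cajal bodies and the SMN complex, 0 were called and 1 had an unadjusted p under 0.05. That gene was Usp1 (-0.26, limma adjusted p 0.0509), a deubiquitinase gene that was in the list but is not a known Cajal body gene. Coil, which encodes the marker protein of Cajal bodies, differed by 0.06. Of 26 genes for trimming, tailing and decay, 0 were called and 5 had an unadjusted p under 0.05. With WT replicate 3 left out, 1 gene of the Cajal body list, which holds Usp1, and 2 decay genes were called. With WT replicate 2 left out 2 decay genes were. The 5 lists had medians between -0.07 and 0, and 13.9% of all genes were called.

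Other short noncoding RNAs were mixed. Of the 9 tested, 1 was called, beside 13.9% of all genes: Vaultrc5, a vault RNA, rose in DM. WT libraries read 9, 9.1 and 8.97 and DM libraries 9.44, 9.9 and 9.45, all above WT, a difference of 0.57 (SE 0.118, limma adjusted p 0.0124). The 7SK RNA itself, Rn7sk, read 17, 17.05 and 16.87 in WT and 17.06, 17.11 and 17.36 in DM. The lowest DM library lay only just above the highest WT library. The difference was 0.20 (limma adjusted p 0.289), and the U12 spliceosomal RNA Rnu12 by -0.12 (0.25).

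Marker genes of some cell types differed between the groups and those of others gave few calls. Kit itself had a mean of 14.39 in WT and 14.6 in DM, and of the 8 haematopoietic marker genes, all read, 1 was called (Itgam, 0.46). Beside 13.9% of all genes tested, limma called 9 of 10 neutrophil genes, all lower in DM. The log2 of the summed linear values of the 10 ran from 17.48 to 17.72 in WT and from 15.76 to 16.44 in DM. They join early genes such as Mpo (-4.23) with later granule genes such as Ltf (-1.28) and Lcn2 (-0.45, not called). Also called with limma were 9 of 10 monocyte and macrophage genes, all higher (16.74 to 17.5 in WT, 17.89 to 18.15 in DM). So were 10 of 10 proliferation genes, all lower (15.91 to 16.07 and 15.47 to 15.65). Of 8 mast cell and basophil genes 1 was called (18.79 to 19.15 in WT, 18.8 to 19.27 in DM), of 6 tested erythroid genes 0 (also 0 at an unadjusted p of 0.05), of 6 tested megakaryocyte genes 1, of 8 stromal and endothelial genes 1, and 3 of 7 lymphoid genes were read. Mllt3 itself, which these values do not split into viral and endogenous transcripts, differed by -0.48 (limma adjusted p 0.0448), a call lost in 6 of 13 alternatives, among them leaving out WT replicate 1 (-0.365, adjusted p 0.152), WT replicate 2 (-0.496, 0.0606), DM replicate 2 (-0.418, 0.15) or DM replicate 3 (-0.398, 0.161). The part of these shifts in the values of the small RNAs was not tested, and in such bulk samples fewer cells of a type and less RNA per cell cannot be told apart.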

How the data were processed

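Total RNA of 6 libraries (WT n = 3, DM n = 3, all batch 1 per the labels) was analysed from 1 deposited table of rlog values on the log2 scale, which the authors normalized for library size. The table's name calls them rlog, and they run from -1.97 to 21.88 and are not whole. Per the submitters' processing notes, cutadapt 2.6, STAR 2.7.3, DESeq2 1.30.0 and the build mm10 were used; the annotation and the use of strand are not given in the sources used here. Such values hold no counts: depth is unknown and intervals for counting error are not given. The 142699 lines were merged to 55487 genes, of which 54435 (98.1%) matched GENCODE M21, the source of coordinates, biotypes and sequences.

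All 18766 genes with a mean of at least 3 were fitted with limma 3.58.1 in R 4.3.3 (mean-variance trend, no covariate, prior degrees of freedom 5.82), with Benjamini-Hochberg adjustment over all of them and a threshold of 0.05. The test was checked on simulated normal values with changes larger than the difference of any member. That check does not bear on changes as small as those of the members. Hosts are longer annotated genes that hold a member on the same strand. Copies were sought with BLAST 2.17.0 among annotated transcripts (at least 90% identity over 80% of the length). Named members were those with the highest means, the largest differences, known processing roles, or means next to the limit, with their hosts; Snord55, Snord89 and other members in passing were named after their values were seen. Members and lists were chosen with earlier results of these data known. Alternatives were 2 other filters, no trend, 3 scalings, a replicate block, each library left out, members free of other genes' exons and, added after the data were seen, all genes typed snoRNA or scaRNA.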

Additional observations from a re-analysis of the deposited data

How the results depend on the processing

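In each of the 13 refits, 0 of the tested members were called; the smallest adjusted p of a member was 0.101, after quantile normalization, where 1 had an unadjusted p under 0.05, as did 1 without WT replicate 3. With no filter on the mean, 72 genes with such symbols could be tested and 0 were called, with 0 at an unadjusted p under 0.05. With all genes typed snoRNA or scaRNA counted, 1 was called. With the replicate block 0 members were called, and 3742 of all genes against 2611 without it. Deviations of WT and DM libraries with the same number had correlations of 0.491, 0.116 and 0.041. Those with different numbers had correlations from -0.336 to 0.124. These values do not settle whether the numbers pair the libraries. No label states a pairing, so the block was kept as an alternative only. The block gave 1 call each in the C/D box core, H/ACA box core and Cajal body lists and 2 in the decay list, and it also called the hosts Snx5 (0.239, adjusted p 0.0395) and Rpsa (-0.188, 0.0472).

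The cause of the following moves was not tested. The median over the members went from -0.013 to 0.021 (quantile), -0.045 (centred on the tested genes) and 0.037 (centred on the members). The C/D box median was 0 and 0.083 under those 2 centrings, and from 0.004 to 0.035 with a library left out. The H/ACA box median was 0.024, -0.069 and 0.014 under the 3 scalings, and -0.005 with a mean of at least 5. Quantile normalization also gave 1 call in each core list and in the Cajal body list and 3 in the decay list, with medians of -0.135 (C/D box core) and -0.068 (decay). The Cajal body list had 1 call with a mean of at least 5, without the trend or centred on the tested genes, and a median of 0.044 centred on the members, where the decay list had 3 calls. With a library left out, calls ranged from 0 to 1 in both core lists, the assembly list and the Cajal body list and from 0 to 2 in the decay list. The r of members and hosts ranged from 0.25 to 0.64.

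Signs of some uncalled members turned; centring shifts all genes of a library alike, so turns under it follow from that shift. Under quantile normalization Snord104 was 0.033, Snord43 0.007, Snora57 0.005, Snora17 0.018, Snord55 0.005, Snora21 0.05, Snora47 0.009, Snora20 0.05, Snora30 0.027, Snora78 0.024, Snora62 0.036, Snord83b 0.028, and the hosts Snhg10 0.053 and Tpt1 -0.047. Centred on the members, Snora23 was 0.046, Scarna6 0.047, Snord104 0.046, Snora21 0.035, Snora20 0.04, Snora30 0.014, Snora78 0.01, Snora62 0.02, Snord83b 0.03, Snhg10 0.032 and Ipo7 0.032; centred on the tested genes, Snord53 was -0.022 and the core protein gene Fbl -0.021 (-0.071 under quantile normalization). With a library left out, values ranged from -0.016 to 0.156 for Snord17, -0.055 to 0.143 for Scarna13, -0.051 to 0.028 for Snora23, -0.003 to 0.092 for Snord118, -0.027 to 0.012 for Scarna6, -0.051 to 0.067 for Snord104, -0.103 to 0.001 for Snora17, -0.024 to 0.079 for Snord49a, -0.029 to 0.003 for Snora20, -0.041 to 0.001 for Snord83b, -0.048 to 0.02 for Snhg10, -0.105 to 0.038 for Ipo7 and -0.031 to 0.065 for Fbl. Low values are shrunken by the transform, which limits what can be seen for members with a mean under 5.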
